A study of Sus scrofa with 54 samples.

Results

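In the ileum of piglets suckled by outdoor sows, transcripts of bile acid transport (FABP6), antibody transport (JCHAIN, PIGR), mucosal protection (TFF2) and T cells (10 of 19 genes on the array) were higher at day 28 of life than at day 5, while transcripts of the secreted proteins RBP4, ITIH4 and GPX3, of the endocytic receptor LRP2 and of the growth factor receptor IGF1R were lower. Of all probesets on the arrays, 2.18% passed as higher at day 28 and 2.31% as lower. The log2 changes of FABP6 and ITIH4 were 7.96 (SE 0.76) and -6.80 (SE 0.87) in 6 piglets of each age, and of the 2 RBP4 probesets 1 fell (-7.04, SE 0.56) and the brighter one changed by -0.43 (SE 0.25) and did not pass. The comparison used 12 of the 54 arrays of the series, 1 array for each piglet. They were the 6 arrays labelled as outdoor sow-reared at day 28 and the 6 labelled the same way at day 5, and all 23999 porcine probesets on them were tested, each a set of probes for 1 transcript. The group of outdoor piglets is called OUT, as in the study. These were Large White × Landrace piglets that stayed with their outdoor-housed mothers and suckled until weaning at day 28, received no treatment that the sources used here name, and were killed at day 5 or day 28. Piglets of indoor-housed sows, called IN, suckled in the same way indoors. Isolator piglets, called IR, came from indoor sows, lived in isolators from the first day of life on milk replacer and received antibiotics daily. All sows were inseminated by the same boar and several piglets of each litter entered the study, so piglets of a group may be litter mates. The labels name neither the litter nor the run of the experiment. Each age is a separate set of piglets, and p-values measure the spread between piglets of these 2 sets.

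The lining of the newborn pig ileum is known for enterocytes that take up milk proteins whole, by endocytosis, and break them down in large lysosomal vacuoles. During suckling these cells are replaced by enterocytes of the adult type, which digest nutrients at a brush border of microvilli and, in the ileum, recover bile acids. A piglet is born without maternal antibodies, takes them from colostrum and milk, and fills its own mucosa with lymphocytes and antibody-secreting plasma cells over the following weeks. All values below are on the log2 scale of the deposited signals, so that a difference of 1 is a 2-fold difference, and a log2 change is the mean at day 28 minus the mean at day 5, given with its standard error (SE). RNA came from whole pieces of ileum, in which fewer cells of a type and less RNA per cell cannot be told apart.

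Markers of the ileal epithelium were bright on 11 of the 12 arrays. FABP2, the intestinal fatty acid binding protein, lay at 12.47 to 13.40 on 5 of the day 5 arrays and at 13.10 to 13.68 on the 6 of day 28, and VIL1, a structural protein of the brush border, at 11.56 to 11.78 and 12.14 to 12.48. The exception was day 5 replicate 3, where FABP2 was 7.66, VIL1 8.51, the aminopeptidase ANPEP 4.44 against 12.48 to 13.19 on the other day 5 arrays, and the apolipoprotein APOC3 3.84 against 13.01 to 13.98. The same array carried transcripts of acute inflammation that the others lacked. S100A9, a calcium-binding protein of neutrophils, was 13.79 there and 2.28 to 2.59 on the other 5, LTF (lactoferrin, stored in neutrophil granules) was 11.82 against 2.08 to 2.18, and the mean of 11 neutrophil genes was 6.16 against 2.87 to 3.03. Its mean correlation with its own group was 0.881, while the other 5 arrays of day 5 had 0.963 to 0.965. Each result is therefore given over all 12 arrays, and again without this array where that matters. At day 28, replicates 1 and 2 were the nearest to the day 5 arrays, with mean correlations of 0.972 and 0.969 to the day 5 arrays other than replicate 3, against 0.937 to 0.950 for replicates 3 to 6. Their values are given beside the main gene groups in which they stood apart. Besides the genes that the naming rule chose, members of the lists are named below after their values were seen. LCT, SI, SLC10A2, FGF19, MKI67 and LYZ, also of interest in the suckling ileum, were not analysed here because no probeset carried their symbol in the annotation used.

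Of the 23999 probesets, 523 (2.18%) were higher and 554 (2.31%) lower at day 28 than at day 5, at an adjusted p under 0.05 and a fold of at least 2. Together they made up 4.49% of all probesets. They named 268 genes that rose and 202 that fell, and no gene was called in both directions. An unadjusted p under 0.05 was reached by 6301 probesets. The median log2 change over all probesets was -0.0066, a value that the normalization of the arrays to each other holds near 0. Centring each array on its own median, a shift under 0.1, turned the share of higher calls from 48.6% to 59.2% (671 higher, 463 lower). Without day 5 replicate 3 the calls were 706 higher (2.94%) and 952 lower (3.97%), 6.91% in all, and 470 of the 523 and 499 of the 554 were among them. Without day 28 replicates 1 and 2 they were 1182 higher (4.93%) and 1030 lower (4.29%), 9.22% in all. Those 2 piglets were singled out as nearest to day 5, so leaving them out tends to widen the difference between the ages. Counts from that fit, here and below, describe the split and are no added support for a rise or fall. The values of the 6 piglets at one age did not overlap those at the other for 303 of the 523 and 282 of the 554 called probesets, beside 702 (2.93%) and 726 (3.03%) of all probesets in each direction.

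FABP6, the ileal protein that carries bile acids through the enterocyte, had the largest rise of any gene with a symbol. It lay at 2.61 to 4.84 (median 2.70) at day 5 and at 8.58 to 13.81 (median 11.002) at day 28, a log2 change of 7.96 (SE 0.76, adjusted p = 0.000172). The other 5 piglets of day 5 were below 3.3, replicate 6 was at 4.84, and no piglet of day 28 was below 8.58. Without day 5 replicate 3 the change was 7.97. FABP6 was the only one of 4 bile acid genes on the array to pass. ABCC2, an export pump of the apical membrane, had a log2 change of 0.80 (SE 1.06), and ABCB11, the bile salt pump of liver, was 2.40 to 3.01 at day 5 and 2.15 to 2.39 at day 28.

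**Figure D1:**
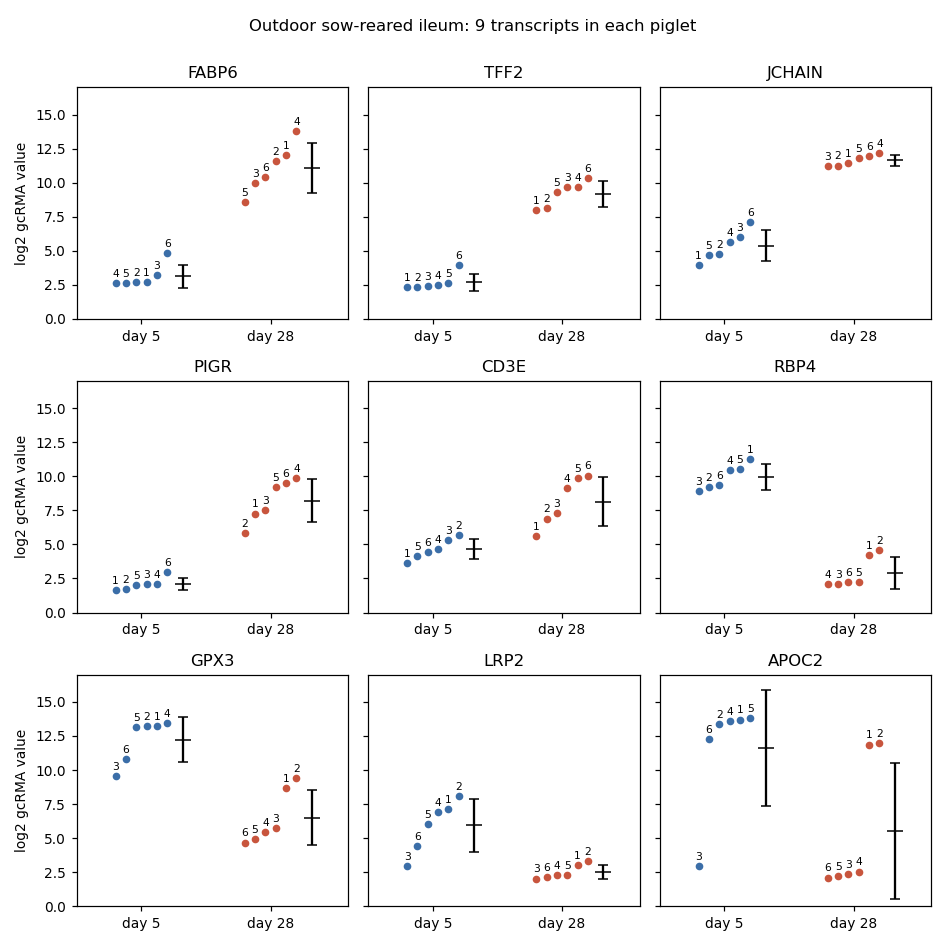
Log2 gcRMA value of 9 transcripts in each outdoor piglet at day 5 (blue) and day 28 (red), sorted by value within each age, with the piglet's label number above each point and the mean ± SD of 6 piglets in black beside them. FABP6, TFF2, JCHAIN, PIGR, RBP4 and GPX3 do not overlap between the ages. GPX3, LRP2 and APOC2 are lowest at day 5 in replicate 3 and highest at day 28 in replicates 1 and 2.

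Most transcripts of nutrient digestion and uptake were already bright at day 5 and changed little. Of 9 brush border enzymes and structural genes on the array only TMPRSS15 rose, the enteropeptidase that activates trypsin, with 2.99 to 5.496 (median 3.61) at day 5, 4.88 to 7.92 (median 6.14) at day 28 and a log2 change of 2.45 (SE 0.61, adjusted p = 0.0289). ANPEP, DPP4 and ENPEP, all peptidases, had values of 12.48 to 13.19, 10.94 to 12.08 and 12.97 to 13.19 on 5 day 5 arrays and of 13.07 to 13.71, 11.42 to 12.61 and 12.82 to 13.43 at day 28. The list's median change of 1.03 came down to 0.01 without day 5 replicate 3. Of 11 sugar and amino acid transporters, 1 rose over all arrays and 2 without day 5 replicate 3, with list medians of 1.10 and 0.33. SLC2A5, the fructose transporter, lay at 4.32 to 5.70 (median 4.73) at day 5 and 5.55 to 8.36 (median 7.39) at day 28 and rose by 2.33 (SE 0.42, adjusted p = 0.00694). SLC5A1, the sodium-coupled glucose transporter, was 6.79 to 11.49 (median 10.59) at day 5 and 11.51 to 12.97 (median 12.27) at day 28. Its values did not overlap, but it passed only without day 5 replicate 3 (log2 change 1.51, SE 0.29, adjusted p = 0.00669). With that array the change was 2.17 (SE 0.66, adjusted p = 0.0607). None of the 9 other transporters of sugars, peptides and amino acids passed with or without it. SLC15A1, which carries small peptides, changed by 1.76 (SE 1.001).

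Apolipoproteins differed from each other. APOA4, a major protein of chylomicrons, was 12.77 to 13.53 on 5 arrays of day 5 and 12.78 to 13.56 at day 28, with no change that passed. APOA2, a protein of high density lipoprotein, had a log2 change of -4.42 (SE 1.05, adjusted p = 0.0231). It lay at 2.51 to 9.11 (median 7.70) at day 5 and at 1.96 to 4.01 (median 2.07) at day 28, and day 5 replicate 3, at 2.51, was the one day 5 array inside the day 28 range. APOC2, the activator of lipoprotein lipase, split the piglets of each age. It was 12.29 to 13.81 on 5 day 5 arrays and 2.95 in replicate 3, and at day 28 it was 11.88 and 11.99 in replicates 1 and 2 but 2.10 to 2.54 in the other 4. Its log2 change was -6.11 (SE 2.46, adjusted p = 0.14) over all arrays and -7.85 (SE 2.01, adjusted p = 0.0231) without day 5 replicate 3. Of 15 lipid absorption genes 1 was lower over all arrays, against 2 lower (APOA2 and APOC2) and 1 higher without that array. The higher one was PLIN2, which coats lipid droplets. With day 28 replicates 1 and 2 left out, 3 were lower, in a fit that called 4.29% of all probesets lower. Of 19 genes of fatty acid oxidation and ketogenesis 1 rose, ACAA2, a thiolase of mitochondria (log2 change 1.06, SE 0.26, adjusted p = 0.0281). Of 9 genes of arginine and citrulline synthesis none passed, among them CPS1 at 12.12 to 12.24 on 5 arrays of day 5 and 11.07 to 12.15 at day 28, and ARG2, the mitochondrial arginase, was higher without day 5 replicate 3 (1.96, SE 0.46, adjusted p = 0.0155).

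Genes of protein endocytosis and the lysosome held more falls than any other of the 35 lists once day 5 replicate 3 was left out, but few over all arrays. Of 23 on the array, 2 were lower over all 12 arrays (LRP2 and MAN2B1) and 14 were lower and 1 higher (PLLP, a membrane protein of endocytic vesicles) without replicate 3, where 952 probesets (3.97%) were called lower. Leaving out day 28 replicates 1 and 2 gave 7 lower and 1 higher, in a fit that called 4.29% of all probesets lower. The median log2 change of the list was -1.13 with day 5 replicate 3 and -1.39 without it, beside -0.0066 and 0.0014 over all probesets. LRP2 (megalin), a large endocytic receptor, lay at 2.92 to 8.08 (median 6.50) at day 5 and 2.03 to 3.31 (median 2.27) at day 28, a log2 change of -3.42 (SE 0.75, adjusted p = 0.0164). The 6 day 28 piglets and day 5 replicate 3, at 2.92, overlapped, and the other day 5 piglets were at 4.43 to 8.08. DAB2, the adaptor that links megalin to clathrin, was 12.30 to 13.00 on 5 day 5 arrays and 8.57 in replicate 3. At day 28 it stayed at 11.72 and 11.99 in replicates 1 and 2 and was 6.42 to 7.36 in the rest. DAB2 has 3 probesets with changes of -4.69 to -3.32. The brightest did not pass over all 12 arrays (-3.57, SE 1.18, adjusted p = 0.0794). It passed without day 5 replicate 3 (-4.26, SE 1.07, adjusted p = 0.0215) and without day 28 replicates 1 and 2 (-5.26, adjusted p = 0.0022). Both dimmer DAB2 probesets passed over all 12 arrays (-4.69, SE 0.97, adjusted p = 0.013 and -3.32, SE 0.87, adjusted p = 0.0349). AMN, the partner of the vitamin B12 receptor cubilin, showed the same pattern, with 9.30 to 11.01 on 5 day 5 arrays, 10.47 and 10.60 in day 28 replicates 1 and 2, and 3.70 to 6.99 in replicates 3 to 6, but did not pass in either fit.

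Of these 14, the 12 lysosomal proteins had log2 changes of -3.45 to -1.17 without day 5 replicate 3. ARSA, which removes sulfate from sulfatides, was 8.87 to 11.07 on 5 day 5 arrays and 5.80 to 9.16 at day 28 (log2 change -3.45, SE 0.64, adjusted p = 0.00563). NEU1, the lysosomal sialidase, was 10.18 to 11.09 and 6.09 to 9.77 (-2.91, SE 0.69, adjusted p = 0.0163), and GLB1, the lysosomal galactosidase, 9.497 to 10.72 and 7.70 to 9.96 (-1.62, SE 0.36, adjusted p = 0.0126). Also lower in that fit were GUSB, HEXA, CTSD, CTSH, NPC2, PSAP, LIPA and ASAH1, which degrade or move glycans, proteins and lipids in the lysosome. MAN2B1, the lysosomal mannosidase, passed in both fits (-1.13, SE 0.29, adjusted p = 0.0308 over all arrays). FCGRT, the receptor that carries immunoglobulin G across and recycles it inside cells, lay at 11.16 to 11.77 at day 5 and 11.33 to 12.17 at day 28, with a log2 change of 0.23 (SE 0.16, adjusted p = 0.394). NPC1 and SCARB2, both proteins of the lysosomal membrane, changed by 0.05 (SE 0.29) and 0.22 (SE 0.32).

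The mean level of the 23 endocytosis and lysosome genes separated the day 28 piglets into 2 sets. Replicates 1 and 2 had means of 10.05 and 10.15, while replicates 3 to 6 lay at 8.48 to 8.80 and the day 5 piglets other than replicate 3 at 10.09 to 10.94. Cell proliferation genes separated the same piglets the other way. Their mean was 6.11 and 5.32 in replicates 1 and 2, 8.09 to 8.47 in replicates 3 to 6, and 5.30 to 6.56 at day 5. All 21 proliferation genes had a change above 0, where the median log2 change over all probesets was -0.0066. Only 3 passed over all arrays, MCM3, MCM5 and CENPF, beside 2.18% of all probesets called higher. Without day 28 replicates 1 and 2, 20 of the 21 passed, in a fit that called 1182 probesets (4.93%) higher. These 2 piglets were left out after their values were seen, so that count does not test the rise. PLK1, a kinase of mitosis, was 4.56 to 6.14 at day 5, 5.42 and 5.01 in day 28 replicates 1 and 2, and 8.19 to 8.72 in the others. AURKA, another mitotic kinase, was 3.51 to 6.02, then 5.07 and 3.92, then 8.28 to 8.85.

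**Figure D2:**
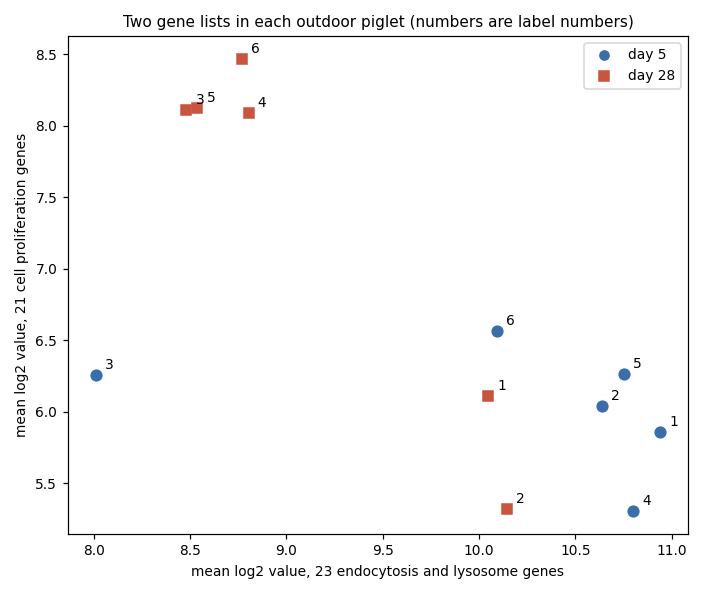
Mean log2 value of 23 endocytosis and lysosome genes (horizontal) against that of 21 cell proliferation genes (vertical) in each outdoor piglet, day 5 as blue circles and day 28 as red squares, with label numbers. Day 28 replicates 3 to 6 lie at the upper left, day 28 replicates 1 and 2 lie with 5 of the day 5 piglets at the lower right, and day 5 replicate 3 lies alone at the lower left.

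Over the whole array, 34 probesets (19 named genes) had both replicates 1 and 2 of day 28 at least 3 log2 units above the highest of replicates 3 to 6, and 18 probesets (12 named genes) had both at least 3 units below the lowest of them. Besides APOC2, DAB2 and AMN, the first set held SULT1E1, the estrogen sulfotransferase, at 9.81 and 9.73 against 2.82 to 3.62, and CYP3A46, a cytochrome P450, at 11.96 and 11.49 against 7.27 to 7.42. The second set held the cell cycle genes AURKA and CCNB2, the interferon-induced genes ISG15, IFIT1 and DDX58, and SQLE and ACAT2 of sterol synthesis (ACAT2 by the dimmer of its 2 probesets). SQLE was 3.17 and 2.99 in replicates 1 and 2 and 6.405 to 8.995 in the others. These genes were picked by that gap after their values were seen, so the split itself was not tested. Among the probesets called lower, replicates 1 and 2 were the 2 highest of day 28 in 48.0% (266 of 554), against 19.01% of all probesets. Among those called higher they were the 2 lowest in 51.8% (271 of 523), against 16.5% of all probesets. Replicates 1 and 2 were singled out as nearest to day 5, and called probesets are those that differ from day 5. These shares therefore follow in part from the selection and do not test the split. The study ran in 3 consecutive runs, but the labels do not say whether numbers 1 and 2 shared one, so piglet, litter and run cannot be told apart here. In IN piglets of day 28 the endocytosis and lysosome mean also had a wide range, with 10.33, 9.73 and 9.72 in replicates 3, 4 and 5 and 8.48 to 8.80 in the others, and the proliferation mean was 5.37, 5.80 and 5.39 in replicates 3, 4 and 5 and 8.27 to 8.85 in the others. The 6 IR piglets of day 28 stayed within 8.87 to 9.40 and 6.86 to 7.90.

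RBP4, ITIH4 and GPX3 were among the 12 largest falls without overlap, and all 3 encode secreted proteins. RBP4, the carrier of retinol in plasma, lay at 8.91 to 11.27 (median 9.92) at day 5 and at 2.07 to 4.61 (median 2.23) at day 28 by the first of its 2 probesets, a log2 change of -7.04 (SE 0.56, adjusted p = 5.4e-05). Every day 5 piglet was above 8.8 and every day 28 piglet below 4.7. The other, brighter RBP4 probeset lay at 9.26 to 10.88 at day 5 and 9.30 to 10.06 at day 28, with a change of -0.43 (SE 0.25, adjusted p = 0.3), so the probesets of this gene disagree. ITIH4, a plasma protease inhibitor heavy chain, was 5.01 to 11.53 (median 10.19) at day 5 and 2.61 to 2.96 (median 2.77) at day 28 and had a log2 change of -6.80 (SE 0.87, adjusted p = 0.00108). Day 5 replicate 3 had the lowest day 5 value, 5.01, and that was still above every day 28 piglet. GPX3, the secreted glutathione peroxidase, was 9.56 to 13.44 (median 13.19) and 4.67 to 9.42 (median 5.62), with a log2 change of -5.75 (SE 0.98, adjusted p = 0.00523). Its lowest day 5 value, in replicate 3, was just above its highest day 28 value, in replicate 2. AMBP, the precursor of a plasma protease inhibitor and of a heme-binding protein, fell from between 2.35 and 4.66 to between 1.61 and 1.95. HPN (hepsin), a membrane serine protease, fell from between 5.32 and 8.70 to between 2.79 and 3.06. Transcripts that define hepatocytes stayed under the array medians of 4.01 to 4.21 at both ages, with ALB at 2.18 to 2.56 at day 5 and 1.85 to 2.37 at day 28, FGB at 1.98 to 2.13 and 1.66 to 2.17, and AHSG at 2.52 to 2.74 and 2.28 to 2.77. Of 11 pancreas, liver and stomach genes only AMBP passed.

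GPX7, a peroxidase of the endoplasmic reticulum, had the smallest SE of the 12 largest falls without overlap. It lay at 6.44 to 7.31 (median 6.81) at day 5 and 2.43 to 3.15 (median 3.10) at day 28, a log2 change of -3.83 (SE 0.17, adjusted p = 2.32e-07), and day 5 replicate 3, at 7.31, was the highest of its group. The changes of its 3 probesets ran from -3.83 to 0.03. GGTA1P, named in the annotation for the galactosyltransferase that makes the alpha-Gal sugar of pig cells, also did not depend on replicate 3. It was 8.52 to 9.31 (median 9.21) at day 5 and 3.48 to 5.51 (median 4.80) at day 28 (log2 change -4.33, SE 0.31, adjusted p = 2.11e-05), and all 3 of its probesets had a change below 0, from -4.33 to -2.41. FOLR1, a folate receptor, fell from between 3.74 and 8.19 to between 1.91 and 2.44 (-3.61, SE 0.64, adjusted p = 0.00622), although its 2 probesets had changes of -3.61 to 0.17. ETNK2, an ethanolamine kinase, fell by 4.26, MSANTD3 by 4.71, FBXL2, an F-box protein, by 2.82, and CACNA2D1, a subunit of voltage-gated calcium channels, by 3.06 on the log2 scale, and none of these 4 overlapped between the ages. SLC11A2, the transporter that takes up dietary iron, was the only one of 11 iron, zinc, vitamin and calcium genes to pass over all arrays, at 7.62 to 8.85 and then 5.82 to 6.84 (-1.94, SE 0.24, adjusted p = 0.00087). Without day 5 replicate 3, 2 of the 11 were lower, in a fit that called 3.97% of all probesets lower. S100G, the calcium carrier of enterocytes, stayed at 13.63 to 13.97 on 5 arrays of day 5 and 13.64 to 13.97 at day 28.

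Some genes of early growth fell. IGF1R, the receptor of insulin-like growth factors, lay at 6.36 to 7.78 (median 7.33) at day 5 and 3.14 to 5.62 (median 4.04) at day 28, a log2 change of -2.81 (SE 0.43, adjusted p = 0.00303). Of 11 fetal and imprinted growth genes, 3 were lower and none higher, with a list median of -0.77, beside 2.31% of all probesets called lower. PLAGL1, an imprinted zinc finger gene, fell from between 10.39 and 11.16 to between 8.43 and 10.20 (-1.53, SE 0.27, adjusted p = 0.00627). IGF2R, which clears IGF2 and sorts lysosomal enzymes, fell from between 4.38 and 5.93 to between 3.21 and 4.29 (-1.32, SE 0.28, adjusted p = 0.0137). The third was PEG10, an imprinted gene derived from a retrotransposon (-1.87, SE 0.44, adjusted p = 0.0224). IGF2 itself, the fetal growth factor, was 5.04 to 6.78 at day 5 and 3.71 to 6.46 at day 28 by the brightest of its 13 probesets, and its change of -1.27 (SE 0.43, adjusted p = 0.0823) did not pass. AFP, the alpha-fetoprotein of fetal liver and gut, was 2.14 to 2.69 at day 5 and 2.34 to 2.84 at day 28.

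Transcripts of antibody production and transport were among the largest rises. JCHAIN, which joins IgA into dimers in plasma cells, lay at 3.93 to 7.13 (median 5.22) at day 5 and 11.25 to 12.22 (median 11.62) at day 28, a log2 change of 6.28 (SE 0.45, adjusted p = 2.15e-05). PIGR, the epithelial receptor that carries IgA into the gut lumen, was 1.67 to 2.99 (median 2.06) at day 5 and 5.83 to 9.91 (median 8.37) at day 28 and rose by 6.12 (SE 0.62, adjusted p = 0.000245). Its 2 probesets had changes of 2.95 to 6.12. LOC396781, for which RefSeq gives the synonym IGHG (immunoglobulin gamma heavy chain), was at 2.16 to 2.38 (median 2.24) in the day 5 piglets and at 6.59 to 10.69 (median 7.83) at day 28 (6.15, SE 0.61, adjusted p = 0.000202). For all 3, no piglet of day 28 came within 2 log2 units of the highest piglet of day 5. The day 5 values of LOC396781 lay under the array medians. JCHAIN, at 11.43 and 11.26 in day 28 replicates 1 and 2, lay there within the 11.25 to 12.22 of the others, while PIGR, at 7.27 and 5.83, was lowest in them (7.55 to 9.91 in replicates 3 to 6). The mean of 6 plasma cell and IgA transport genes was 8.44 and 8.11 in day 28 replicates 1 and 2, 8.73 to 9.63 in replicates 3 to 6, and 5.83 to 7.07 at day 5. Of 6 plasma cell and IgA transport genes, JCHAIN and PIGR passed, beside 2.18% of all probesets called higher. All 6 had a change above 0, where the median log2 change over all probesets was -0.0066. TNFRSF17, the survival receptor of plasma cells, changed by 0.80 (SE 0.24), XBP1, the transcription factor of secretory cells, by 0.22 (SE 0.14), and SDC1, carried by plasma cells and epithelium alike, by 0.74 (SE 0.47), or by 1.18 (SE 0.25, adjusted p = 0.00957) without day 5 replicate 3. None of 7 B cell and germinal centre genes passed over all arrays. CD79B, a part of the B cell receptor, was at 2.38 to 2.80 in 5 day 28 piglets and at 8.02 in replicate 6, where BTK, a kinase of B cells, was also high at 7.87. How much lymphoid follicle each piece of ileum held was not recorded in the sources used here.

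T cell transcripts were the most frequent rises of any list of more than 5 genes. Of 19 T and NK cell genes, 10 were higher and none lower, with a median log2 change of 2.81, beside 2.18% of all probesets called higher. CD3E, a chain of the T cell receptor complex, was 3.66 to 5.67 (median 4.54) at day 5 and 5.64 to 10.06 (median 8.196) at day 28 (log2 change 3.50, SE 0.73, adjusted p = 0.0135). The mean of the 19 genes was 2.93 to 3.64 at day 5, 3.71 and 4.03 in day 28 replicates 1 and 2, 4.85 to 6.47 in replicates 3 to 6. Without replicates 1 and 2, 12 of the 19 passed, in a fit that called 4.93% of all probesets higher. For CD3E, replicate 1 of day 28, at 5.64, was the one piglet of that day below the highest of day 5. CD3D, CD3G and CD247, the other signalling chains, rose by 2.90 (SE 0.62), 2.81 (SE 0.64) and 3.05 (SE 0.72), CD2, an adhesion receptor, by 3.46 (SE 0.72), and LCK, the kinase of the receptor, by 3.06 (SE 0.65). CD8A, the coreceptor of cytotoxic T cells, lay at 2.55 to 3.21 (median 2.90) and then 3.41 to 7.71 (median 6.09), a log2 change of 2.92 (SE 0.70, adjusted p = 0.0248). CD4, the coreceptor of helper T cells, stayed at 2.27 to 2.83 and 2.35 to 2.87, under the array medians. GZMH, a granule protease, rose by 3.39 (SE 0.77) and KLRK1, an activating receptor of NK and cytotoxic T cells, by 2.20 (SE 0.60). PRF1 (perforin) did not pass at 0.48 (SE 0.20), with 2.39 to 2.70 at day 5. CCR9, the receptor that guides lymphocytes to the small intestine, had the smallest p of the list, with 2.15 to 2.44 (median 2.31) at day 5 and 3.77 to 6.39 (median 5.39) at day 28 (2.93, SE 0.34, adjusted p = 0.000591). All its day 28 piglets were above all of day 5. Its ligand CCL25, made by enterocytes, was already 10.66 to 11.98 on 5 day 5 arrays and was 12.04 to 12.23 at day 28.

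**Figure D3:**
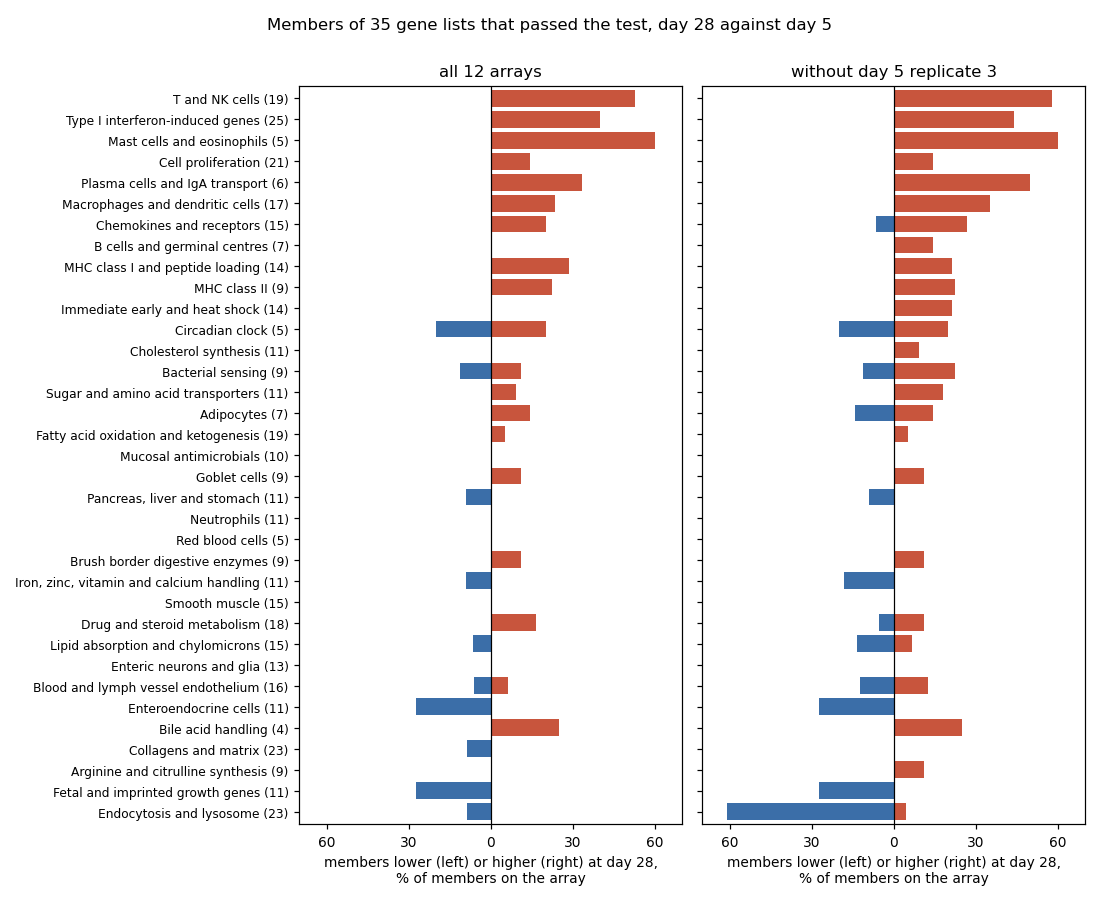
Share of the members of 35 gene lists that were higher (red, to the right) or lower (blue, to the left) at day 28 at an adjusted p under 0.05 and a fold of at least 2, over all 12 arrays and without day 5 replicate 3, with the number of members on the array in brackets. T cell and mast cell lists have the longest red bars in both panels, and the endocytosis and lysosome bar grows from 2 to 14 of 23 members.

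Of 15 chemokines and receptors, 3 rose, beside 2.18% of all probesets called higher. Without day 5 replicate 3, 4 rose and 1 fell, in a fit that called 2.94% of all probesets higher and 3.97% lower. Without day 28 replicates 1 and 2, 6 rose, in a fit that called 4.93% of all probesets higher. The mean of the 15 was 6.44 and 6.25 in day 28 replicates 1 and 2, 7.25 to 7.58 in replicates 3 to 6. CCL24, which attracts eosinophils, was 3.77 to 5.36 (median 3.95) at day 5 and 5.76 to 8.61 (median 7.44) at day 28 (3.12, SE 0.45, adjusted p = 0.0021), highest in day 28 replicates 1 and 2. CCL5, which attracts T cells, rose by 2.54 (SE 0.51) and CCL28, an epithelial chemokine for IgA-secreting cells, by 1.96 (SE 0.55). CXCL9, induced by interferon gamma, was 2.90 to 4.59 at day 5, 4.77 and 3.02 in day 28 replicates 1 and 2 and 7.58 to 9.64 in the rest, and had a change of 3.59 (SE 1.05, adjusted p = 0.051). Mast cell genes also rose. MCT7, a tryptase of mast cells, was 2.996 to 3.88 (median 3.07) at day 5 and 4.91 to 5.83 (median 5.37) at day 28 (2.15, SE 0.21, adjusted p = 0.000193). MS4A2, a chain of the IgE receptor, went from between 3.14 and 4.10 to between 4.50 and 5.396 (1.43, SE 0.18, adjusted p = 0.000932), and CCR3, the eotaxin receptor of eosinophils, rose by 1.49 (SE 0.33). These were 3 of 5 mast cell and eosinophil genes, and the other members, KIT and GATA2, changed by -0.40 (SE 0.45) and -0.22 (SE 0.16).

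Among 17 macrophage and dendritic cell genes 4 rose, 6 without day 5 replicate 3 and 4 without day 28 replicates 1 and 2. These fits called 2.18%, 2.94% and 4.93% of all probesets higher. The mean of the 17 genes was 5.63 and 5.78 in day 28 replicates 1 and 2, 6.42 to 6.68 in replicates 3 to 6. CD86, a costimulator of T cells, was 3.01 to 4.40 (median 3.51) at day 5 and 4.58 to 8.44 (median 7.30) at day 28 (3.20, SE 0.67, adjusted p = 0.0134). Day 28 replicates 1 and 2, at 4.58 and 4.69, were the lowest of that age. FCGR3A, an antibody receptor, rose by 2.03 (SE 0.42), AIF1 by 1.05 (SE 0.25) and C1QA, the first component of complement, by 1.001 (SE 0.20). CD163, a scavenger receptor of macrophages, passed without day 5 replicate 3 (2.36, SE 0.40, adjusted p = 0.00365), which had 8.52 against 4.17 to 5.39 on the other day 5 arrays. None of 11 neutrophil genes passed, and apart from day 5 replicate 3 their mean stayed between 2.87 and 3.45 at both ages. Of the bacterial sensor genes, 6 of 9 had a change above 0 over all arrays and 8 without day 5 replicate 3. The median log2 change over all probesets was -0.0066 and 0.0014 in these fits. TLR6 rose (1.14, SE 0.27, adjusted p = 0.0215) and TLR2, a receptor of bacterial lipoproteins, fell (-1.80, SE 0.45, adjusted p = 0.0278), out of 9 genes, and TLR6 did not pass without day 5 replicate 3. TLR4, the receptor of lipopolysaccharide, and its partner LY96 passed only without day 5 replicate 3 (1.28, SE 0.21, adjusted p = 0.00347 and 2.38, SE 0.46, adjusted p = 0.00704).

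Part of the genes of antigen presentation and of the interferon response rose. TAP1, which pumps peptides to MHC class I, lay at 5.62 to 7.91 (median 6.71) at day 5 and 8.11 to 11.37 (median 10.28) at day 28 (log2 change 3.24, SE 0.60, adjusted p = 0.00787). Its 3 probesets had changes of 0.01 to 3.24. PSMB8, a subunit of the immunoproteasome, rose by 2.50 (SE 0.49), and the pig class I genes SLA-8 and SLA-3 by 1.23 (SE 0.21) and 1.07 (SE 0.24). Class I genes are near-identical in sequence, so probesets may share signal between them. These were the 4 of 14 class I genes that passed, and SLA-3 did not pass without day 5 replicate 3. The mean of the 14 was 8.59 to 9.10 at day 5, 9.43 and 8.91 in day 28 replicates 1 and 2, 10.04 to 10.45 in replicates 3 to 6. Without replicates 1 and 2, 7 of the 14 passed. That fit called 4.93% of all probesets higher, against 2.18% over all arrays. B2M, the light chain of class I, was at 13.22 to 13.78 at day 5 and 13.73 to 13.89 at day 28. Of 9 class II genes SLA-DMB and SLA-DOA rose, by 1.94 (SE 0.46) and 1.23 (SE 0.18), while SLA-DRA, a chain of the main presenting molecule, changed by 0.90 (SE 0.31, adjusted p = 0.0897).

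Of 25 type I interferon-induced genes 10 were higher and none lower, beside 2.18% of all probesets called higher, with a median log2 change of 1.79. IFIT1, which binds viral RNA, was 3.55 to 5.55 (median 4.15) at day 5 and 5.59 to 9.95 (median 9.24) at day 28 (3.82, SE 0.79, adjusted p = 0.0128) by the probeset without overlap. GBP2, a GTPase against intracellular microbes, was 5.22 to 7.99 (median 6.85) and 7.88 to 12.34 (median 10.55), a log2 change of 3.63 (SE 0.83, adjusted p = 0.0197). IRF9 and STAT2, which carry the interferon signal to the nucleus, rose by 1.49 (SE 0.28) and 1.33 (SE 0.25), without overlap. ISG15, a ubiquitin-like modifier, did not pass over all arrays (3.39, SE 1.15, adjusted p = 0.0847). It was 6.64 and 5.74 in day 28 replicates 1 and 2, inside the day 5 range of 4.70 to 7.65, and 10.87 to 12.42 in replicates 3 to 6. Without those 2 piglets 18 of the 25 passed, in a fit that called 4.93% of all probesets higher. UBD, a ubiquitin-like protein induced by interferon gamma, was among the 12 largest rises without overlap, at 3.97 to 7.92 (median 5.99) and then 9.05 to 13.00 (median 11.30), a log2 change of 5.17 (SE 0.89, adjusted p = 0.0054). The interferon list mean was 5.48 to 7.06 at day 5, 7.20 and 6.81 in day 28 replicates 1 and 2, and 8.67 to 9.37 in replicates 3 to 6.

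**Figure D4:**
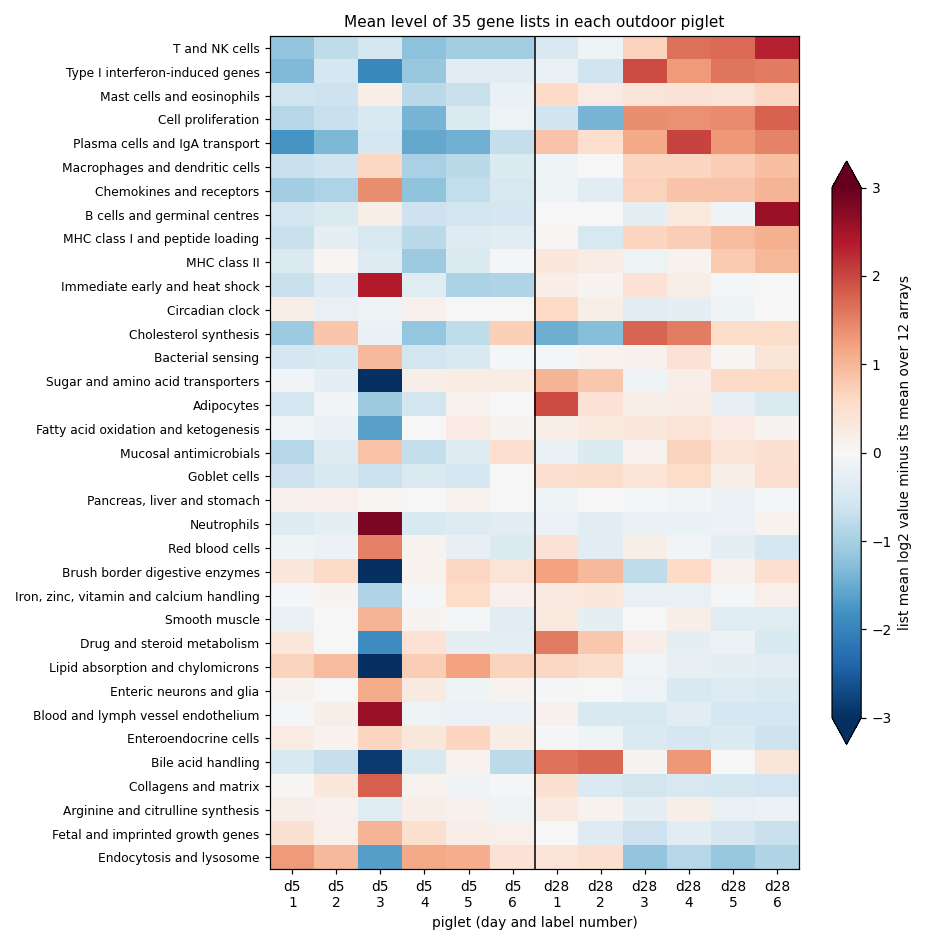
Mean log2 value of each of 35 gene lists in each outdoor piglet, as the difference from the list's mean over the 12 arrays (red above, blue below, colours end at 3 units), with lists ordered by their median change without day 5 replicate 3. Day 5 replicate 3 stands out as high for neutrophil, vessel and immediate early genes and low for brush border and lipid absorption genes. Day 28 replicates 1 and 2 resemble day 5 for proliferation and lysosome genes. For cholesterol synthesis genes they lie below every day 5 piglet.

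TFF2, a trefoil peptide that protects mucosal surfaces and is best known from the stomach, rose from 2.33 to 3.98 (median 2.43) at day 5 to 7.98 to 10.33 (median 9.49) at day 28, a log2 change of 6.49 (SE 0.43, adjusted p = 1.08e-05). Of the day 5 piglets 5 were below 2.7, and day 5 replicate 6, which also had the highest FABP6 and PIGR of its age, was at 3.98. It was the only one of 9 goblet cell genes to pass. TFF3, the trefoil peptide of intestinal goblet cells, was 10.96 to 12.13 at day 5 and 11.82 to 12.35 at day 28, and CLCA1 and SPINK4, both secreted by goblet cells, changed by 0.05 (SE 0.25) and -0.09 (SE 0.21). None of 10 mucosal antimicrobial genes passed. PI3 (elafin), a protease inhibitor, had the largest change of them, 3.61 (SE 1.10, adjusted p = 0.0613), with day 5 replicate 6 at 9.11 and the other day 5 piglets at 3.50 to 5.01. Of 11 genes of the gut's hormone cells 3 fell, beside 2.31% of all probesets called lower. CHGB, a protein of hormone granules, was 6.00 to 7.58 (median 6.80) at day 5 and 3.92 to 5.88 (median 4.22) at day 28 (-2.13, SE 0.38, adjusted p = 0.00627), PCSK1, which cleaves prohormones, fell by 1.49, and CCK (cholecystokinin) by 1.27 on the log2 scale. The hormones GCG and SST stayed bright, with changes of -0.44 (SE 0.18) and -0.38 (SE 0.30).

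AQP1, a water channel of vessels and red cells, had 5.34 to 5.93 (median 5.79) at day 5 and 7.56 to 8.89 (median 8.00) at day 28 (2.35, SE 0.20, adjusted p = 8.67e-05). Its 2 probesets had changes of 0.79 to 2.35. It was the only one of 16 vessel genes to rise over all arrays, while CDH5, the cadherin of endothelial junctions, fell (-2.06, SE 0.48, adjusted p = 0.022). Without day 5 replicate 3, 2 vessel genes were higher and 2 lower, in a fit that called 2.94% of all probesets higher and 3.97% lower. The vessel mean was 7.54 on that array and 4.76 to 5.13 on the other day 5 arrays. Of 23 collagen and matrix genes COL5A2 and COL15A1 were lower, and neither passed without day 5 replicate 3, where their changes were -0.86 and -0.86. No gene passed among 15 smooth muscle, 13 enteric neuron and glia, 5 red blood cell and 14 immediate early and heat shock genes. ACTG2, the smooth muscle actin of the gut, was 13.73 to 14.29 at day 5 and 13.43 to 13.75 at day 28, SNAP25, a protein of nerve endings, changed by -1.41 (SE 0.45), and HBB (beta globin) lay at 8.40 to 9.48 and 8.23 to 9.14. Without day 5 replicate 3, 3 of the 14 immediate early and heat shock genes were higher, FOS, ZFP36 and HSPH1. Of 7 adipocyte genes LPL (lipoprotein lipase) rose by 2.47 (SE 0.52), and ADIPOQ, which is made by fat cells, was 7.35 in day 28 replicate 1 and no higher than 2.65 on the other 11 arrays. Without day 5 replicate 3, 1 adipocyte gene was higher and 1 lower. In the fit without day 28 replicates 1 and 2, 5 collagen and matrix, 4 vessel and 1 neuron and glia genes were lower, and 2 mucosal antimicrobial genes were higher. That fit called 4.29% of all probesets lower and 4.93% higher. Of 18 drug and steroid genes 3 rose, beside 2.18% of all probesets, or 2 rose and 2 fell without those 2 piglets. Without day 5 replicate 3, 2 rose and 1 fell. The 3 that rose with all 12 arrays were EPHX1, an epoxide hydrolase, with 3.53 to 4.31 (median 3.95) and 5.76 to 8.74 (median 7.03), a log2 change of 3.10 (SE 0.46, adjusted p = 0.00243), UGT2B31, a glucuronosyltransferase (3.55, SE 0.86, adjusted p = 0.0248), and ABCB1, a drug efflux pump (1.37, SE 0.39, adjusted p = 0.0454). Of 5 clock genes ARNTL rose (1.23, SE 0.22, adjusted p = 0.00648) and BHLHE40 fell (-1.97, SE 0.39, adjusted p = 0.0104), and the hour of sampling is not given in the sources used here.

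None of 11 cholesterol synthesis genes passed over all arrays, though all 11 had a change above 0. The median log2 change over all probesets was -0.0066. The mean of the 11 genes ranged from 6.54 to 8.53 at day 5. At day 28 it was 6.22 and 6.42 in replicates 1 and 2 and 8.23 to 9.44 in the others, so the day 28 piglets enclosed the whole day 5 range. Without replicates 1 and 2, 3 of the 11 were higher, in a fit that called 4.93% of all probesets higher. The list's median change was then 1.49 in place of 0.53. HSD17B7, a sterol ketoreductase, passed without day 5 replicate 3 (1.62, SE 0.37, adjusted p = 0.0137).

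Among the other large rises, FAXDC2 was 3.82 to 7.31 (median 5.97) at day 5 and 9.51 to 11.38 (median 10.20) at day 28 (4.59, SE 0.62, adjusted p = 0.00143), and C4BPA, a chain of the complement inhibitor C4b-binding protein, was 3.86 to 6.02 (median 5.56) and 7.79 to 10.57 (median 9.96), a log2 change of 4.31 (SE 0.56, adjusted p = 0.00122). LOC100152327, which the annotation leaves without a gene name, was 2.85 to 4.31 (median 3.38) and 10.06 to 12.43 (median 11.11), a log2 change of 7.75 (SE 0.42, adjusted p = 2.14e-06). LOC102160313 and LOC100621559, also unnamed, rose by 4.44 and 3.70 at their highest probesets of 20 and 11. The largest rise of any probeset carried no symbol. Its probeset, Ssc.17718.1.S1_at, lay at 2.72 to 3.03 (median 2.80) at day 5 and 10.78 to 12.43 (median 11.47) at day 28, a log2 change of 8.77 (SE 0.27, adjusted p = 1.29e-08).

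The same comparison in the other rearing groups shares no arrays with this one. From day 5 to day 28, 564 probesets (2.35%) rose and 761 (3.17%) fell in IN, and 774 (3.23%) rose and 857 (3.57%) fell in IR. Of the 523 higher in OUT, 240 were also called higher in IN (45.9% of the OUT list, 42.6% of the IN list) and 318 in IR (60.8% and 41.1%). Of the 554 lower in OUT, 315 were called lower in IN (56.9% and 41.4%) and 352 in IR (63.5% and 41.1%). No OUT call was called in the opposite direction in either group. Of the OUT rises, 99.0% and 99.8% had a change above 0 in IN and IR, against 48.0% and 48.5% of all probesets. Of the OUT falls, 99.6% and 99.3% had a change below 0 there. The test of the difference itself, over the 36 arrays of the 6 groups, called 0 of 23999 probesets (0%) for OUT against IN and 0 for OUT against IR by limma at an adjusted p under 0.05, with 1226 and 698 probesets at an unadjusted p under 0.05. FABP6 rose by 6.57 (SE 1.55) in IN and 5.26 (SE 1.43) in IR, and the difference of OUT from them was 1.39 (SE 1.97) and 2.70 (SE 1.97). JCHAIN rose by 5.07 (SE 1.25) in IN and 7.21 (SE 0.36) in IR, a difference of 1.22 (SE 1.2) and -0.93 (SE 1.2). The falling RBP4 probeset had changes of -5.57 (SE 1.19) and -4.98 (SE 0.81), a difference of -1.47 (SE 1.35) and -2.07 (SE 1.35). SLC11A2 had changes of -1.09 (SE 0.66) in IN and -0.18 (SE 0.24) in IR, and UGT2B31 of 2.45 (SE 0.82) and 0.09 (SE 0.40), but these differences from OUT did not pass either.

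**Figure D5:**
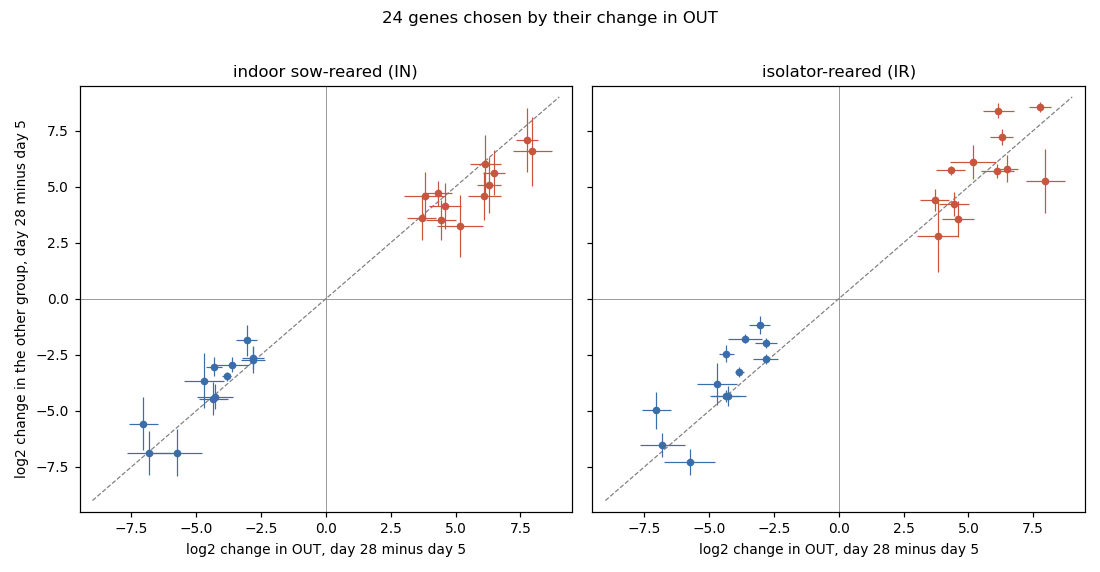
Log2 change from day 5 to day 28 of 24 named genes in OUT (red rises, blue falls, horizontal, with SE) against their change in IN (left) and IR (right, both vertical, with SE). The dashed line marks equal change. All 24 genes have the same sign in the 3 rearing groups. They were chosen by their change in OUT.

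At day 56, 28 days after weaning, the OUT piglets had mean levels of 13.53 for FABP6, 9.95 for TFF2, 12.95 for JCHAIN, 10.83 for PIGR and 9.99 for CD3E, against day 28 means of 11.07 ± 1.81, 9.18 ± 0.94, 11.65 ± 0.40, 8.21 ± 1.58 and 8.14 ± 1.80 (SD, n = 6 piglets). RBP4 (the falling probeset), GPX3, LRP2 and APOC2 had means of 2.37, 4.44, 2.33 and 2.45 at day 56, against 2.91 ± 1.17, 6.49 ± 2.03, 2.51 ± 0.53 and 5.52 ± 4.97 at day 28. These are levels given side by side, and day 56 entered no test here.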

How the data were processed

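Ileum of outdoor piglets was profiled on the GeneChip Porcine Genome Array, 1 array a piglet. The deposited values are log2 signals, which the authors made with GCRMA from scans read in GCOS 1.2 per the submitters' processing notes. GCRMA removes background by probe sequence and quantile-normalizes, so dim probesets bunch near a floor and folds from it are compressed. Arrays hold no read depth, and their number limits the precision. Of 24123 probesets, 124 controls were left out. Genes were named from the platform annotation by the 10110 probesets with 1 symbol (157 had several, 13732 none), and 9961 of these matched RefSeq.

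Arrays were grouped by their titles. In R 4.3.3, limma 3.58.1 (lmFit and eBayes, no covariate) compared the 6 arrays of day 28 with the 6 of day 5, and Benjamini-Hochberg adjustment ran over all 23999 probesets. A call needs an adjusted p under 0.05 and a fold of at least 2. The study itself fitted each day on its own with its runs as blocks, which the labels do not name. Interaction contrasts over 36 arrays compared the change with that of IN and IR at an adjusted p under 0.05. A gene of a list is read from its brightest probeset. The naming rule took the 12 largest rises and 12 largest falls without overlap, the 2 members of each of 35 lists with the smallest p, and 16 key genes, of which 10 were on the array. The members and lists were chosen with earlier results of these data known. The fit was tested on simulated data. Plots used Python 3.11.15 and matplotlib 3.10.9. Alternatives changed the normalization, the filter on dim probesets (a log2 value of 4 in 6 arrays), the samples, the weights, the threshold, the blocks and the probesets. The fits without day 28 replicates 1 and 2, and the fit without day 5 replicate 3 with blocks, were chosen after seeing the data.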

Additional observations from a re-analysis of the deposited data

Results flagged for a closer look

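Over the genes named in the text, 328 sets of 6 values were searched for a piglet whose gap to the nearest of the others took more than 0.625 of the range of its group, and 58 were found, beside about 1 in 20 that chance gives. Of these, 41 belonged to day 5 replicate 3, including its mean correlation of 0.881 with its own group. In day 5 replicate 3 the log2 value stood far below the other 5 piglets for ABCC2 (2.47), AMN (3.17), ANPEP (4.44), APOA4 (4.91), APOC2 (2.95), APOC3 (3.84), ARSA (4.71), CCL25 (4.86), CPS1 (8.63), CTSD (6.76), DAB2 (8.57), DPP4 (8.95), ENPEP (7.33), FABP2 (7.66), GLB1 (5.75), GUSB (8.97), HEXA (8.80), ITIH4 (5.01), LIPA (8.04), NEU1 (4.30), NPC2 (8.86), S100G (10.02), SCARB2 (9.16), SLC15A1 (3.52), SLC5A1 (6.79) and VIL1 (8.51). It was alone at the high end for ARG2 (10.31), CCL5 (8.40), CD163 (8.52), CD79B (3.40), HBB (9.48), LTF (11.82), LY96 (8.11), MCT7 (3.88), PEG10 (8.29), S100A9 (13.79), SDC1 (10.04), SNAP25 (7.26), TLR4 (7.48) and ZFP36 (12.01). The rule is relative to the range, so some of these gaps are small. MCT7, for example, reached 3.21 on the other day 5 arrays.

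Day 28 replicate 1 was alone at the high end for ADIPOQ (7.35), APOA2 (4.01) and IGF2R (4.29). Day 28 replicate 5 was alone at the low end for AMBP (1.61). Day 28 replicate 6 was alone at the high end for BTK (7.87), CD4 (2.87), CD79B (8.02) and MCM5 (7.61). Day 28 replicate 6 was alone at the low end for GPX7 (2.43). Day 5 replicate 2 was alone at the high end for CD3G (3.49) and LOC100621559 (5.28). Day 5 replicate 2 was alone at the low end for GCG (10.33) and SST (9.94). Day 5 replicate 6 was alone at the high end for FABP6 (4.84), PI3 (9.11), PIGR (2.99) and TFF2 (3.98). No named gene changed differently in OUT than in IN or IR past the threshold.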

How the results depend on the processing

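Against 523 higher and 554 lower probesets, 1 fit of all 9 groups called 727 and 903, array weights 1269 and 1371, and an adjusted p with no fold minimum 1130 and 1194. Without day 28 replicates 1 and 2 the counts were 1182 and 1030, and without day 5 replicate 3 and with the replicate block in twos they were 835 and 1023. Leaving out 1 array at a time gave 343 to 777 higher and 349 to 952 lower. The lower count moved by over 1.5 times without day 5 replicate 1 (363), 3 (952) or 4 (367) or day 28 replicate 3 (361), 4 (366), 5 (357) or 6 (349), and the higher count without day 28 replicate 4 (343) or 5 (346). The replicate block by label number gave 426 and 504, and by numbers in twos 645 and 647. Deviations of piglets with the same number correlated at -0.15 to 0.34. Only numbers 2 and 3 of day 5 correlated best with their own number. Such correlations cannot show how the numbers were given out, so whether the numbers follow runs or litters was not tested. The other alternatives, the 3 OUT groups in 1 fit (553 and 684), dim probesets left out (521 and 514), quantile normalization (523 and 524), median centring (671 and 463), trend and robust variance (546 and 574) and an unadjusted p under 0.01 (627 and 655), stayed within 1.5 times. For the difference of OUT from IN and IR, an unadjusted p under 0.01 with a difference of at least 1 gave 75 and 36 probesets in place of 0. Without day 28 replicates 1 and 2, 1 probeset without a symbol differed from IR, Ssc.11260.1.A1_at, by 3.53 (SE 0.59, adjusted p = 0.0302, limma). Every other alternative of these tests, leave-one-out included, gave 0. The cause of these shifts was not tested.

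Of the genes named, those that passed kept their direction under each alternative. The sign turned only for probesets that passed in none of these fits, each gene of a list being read from its brightest probeset (for ACAT2 not the one described above). With array weights, the log2 change of ABCC2 was -0.39, APOC3 was -0.11, ARG1 was 0.19, CLCA1 was -0.12, CPS1 was -0.47 and SCARB2 was -0.14. With median centring, the log2 change of AHSG was 0.00399 and CD4 was 0.058. With quantile normalization, the log2 change of CD4 was 0.00798 and HBB was -0.015. Without day 28 replicates 1 and 2, the log2 change of ADIPOQ was -0.19, CD4 was 0.0075, CLCA1 was -0.12, CPS1 was -0.051 and NPC1 was -0.073. Without day 5 replicate 3 and with the replicate block in twos, the log2 change of ABCC2 was -0.27, APOC3 was -0.35, ARG1 was 0.40, CD4 was 0.0077, CLCA1 was -0.057, CPS1 was -0.41, KIT was 0.063, LTF was 0.087 and SCARB2 was -0.089. With 1 array left out at a time the log2 change ran for ABCC2 from -0.30 to 1.17, ACAT2 from -0.13 to 0.79, ADIPOQ from -0.19 to 0.90, APOC3 from -0.33 to 1.70, ARG1 from -1.44 to 0.41, CD4 from -0.092 to 0.035, CD79B from -0.13 to 0.999, CLCA1 from -0.10 to 0.21, CPS1 from -0.45 to 0.28, HBB from -0.0701 to 0.17, KIT from -0.59 to 0.00204, LTF from -1.85 to 0.10, NPC1 from -0.094 to 0.28, SCARB2 from -0.10 to 0.37, SPINK4 from -0.20 to 0.022 and SULT1E1 from -1.14 to 0.28.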
